A study of Mus musculus with 36 samples.

Results

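Chromatin accessibility was followed at the loci of 4 small genes of heart muscle, Tnnc1, Tcap, Pln and Mb, while mouse cardiac fibroblasts were reprogrammed towards cardiomyocytes. The assay was ATAC-seq, whose transposase inserts sequencing adapters where DNA is open, and accessibility is given as read counts per region of a table on genome build mm9. A region belonged to a locus if it overlapped a window set by position, with no measured value used. The windows were chr14:32000000-32040000 for Tnnc1 with 37 regions, chr11:98230000-98260000 for Tcap with 26, chr10:53030000-53090000 for Pln with 63, and chr15:76820000-76880000 for Mb with 57. Together these were 183 of the 1393120 regions of the table. Positions are printed as deposited, and whether the first base is numbered 0 or 1 is not given in the sources used here.

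All groups came from Cd-1 mice that carry the alpha-MHC-GFP reporter, a green fluorescent protein driven by a cardiac myosin promoter. Neonatal heart explants were grown out, and Thy1-positive, GFP-negative cells, which are largely fibroblasts, were sorted. The GMT groups received retroviruses for Gata4, Mef2c and Tbx5 together with sb431542, which inhibits TGF-beta signalling, and xav939, which inhibits Wnt signalling, and were harvested as GFP-positive cells at day 2, 3, 7, 14 or 21. The fibroblast group received a dsRed retrovirus and neither inhibitor, and was harvested as dsRed-positive cells at day 7. There were 3 libraries in each of the 6 groups, labelled as biological replicates. Factors, inhibitors, sort and, except at day 7, time in culture therefore change together in every comparison with fibroblasts and cannot be told apart. The sort for GFP also means that GMT libraries hold only cells in which the reporter was already active.

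Each of these genes encodes a small protein made in large amounts by heart muscle. Tnnc1 encodes cardiac troponin C, the calcium sensor of the thin filament, and Tcap encodes telethonin, which caps titin at the Z-disc of the sarcomere. Pln encodes phospholamban, which restrains the calcium pump of the sarcoplasmic reticulum, and Mb encodes myoglobin, which binds oxygen in muscle cells. Gata4, Mef2c and Tbx5 are transcription factors of heart development that bind regulatory DNA of many such genes, Gata4 through a GATA core. In RefSeq's gene order on GRCm38.p6, the nearest protein-coding genes were Stab1, Nisch, Sema3g and Phf7 around Tnnc1, Ppp1r1b, Stard3, Pnmt and Pgap3 around Tcap, Slc35f1, Cep85l, Mcm9 and Asf1a around Pln, and Zfp647, 1110038F14Rik, Apol6 and Rbfox2 around Mb. No mm9 annotation was used, so a region is assigned to a locus and not to a gene, a promoter, an exon or an intron.

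The 250 bases before the annotated start of Tnnc1, Pln and Mb are shown because Gata4 is among the delivered factors. They come from RefSeq's promoter table on GRCm38.p6, are written 5′ to 3′ on the gene's strand, and have in capitals every GATA core on either strand (GATA or TATC). Mb has more than 1 annotated start, and a further Mb entry that overlaps the first was left out. Tcap is named only.
Tnnc1, chr14:31208062-31208311, plus strand: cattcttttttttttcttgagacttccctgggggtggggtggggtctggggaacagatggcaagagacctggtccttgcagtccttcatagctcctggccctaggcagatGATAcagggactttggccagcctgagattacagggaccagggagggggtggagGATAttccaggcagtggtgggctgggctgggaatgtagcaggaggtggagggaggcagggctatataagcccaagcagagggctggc
Pln, chr10:53337436-53337685, plus strand: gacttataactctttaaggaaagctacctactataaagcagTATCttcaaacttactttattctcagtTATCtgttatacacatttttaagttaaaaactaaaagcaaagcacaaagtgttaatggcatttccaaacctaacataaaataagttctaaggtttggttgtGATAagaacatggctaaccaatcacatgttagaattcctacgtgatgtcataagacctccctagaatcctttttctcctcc
Mb, first start, chr15:77022788-77023037, minus strand: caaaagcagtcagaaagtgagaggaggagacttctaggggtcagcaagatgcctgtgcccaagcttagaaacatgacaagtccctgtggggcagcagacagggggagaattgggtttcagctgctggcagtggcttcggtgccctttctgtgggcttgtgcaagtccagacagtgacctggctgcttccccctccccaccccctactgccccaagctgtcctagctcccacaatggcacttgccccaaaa
Mb, second start, chr15:77050669-77050918, minus strand: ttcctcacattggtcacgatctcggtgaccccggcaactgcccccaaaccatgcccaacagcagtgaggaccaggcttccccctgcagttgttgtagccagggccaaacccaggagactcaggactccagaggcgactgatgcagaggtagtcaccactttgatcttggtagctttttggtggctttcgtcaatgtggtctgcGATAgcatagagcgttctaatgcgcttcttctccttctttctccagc
The Tnnc1 stretch held 2 GATA cores, the Pln stretch 3, the first Mb stretch 0 and the second 1. A GATA core was present in 53.6% of all 32851 promoter stretches of this length, so its presence is common. No match was found in these stretches to the MEF2 consensus, present in 2.92% of all promoters, or to AGGTGT, the T-box core on either strand, present in 11.8%. Such matches describe letters only, and no count was placed on them because the count table is on another build.

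Of the 183 regions, 63 passed a filter on low counts that used all 18 libraries: 15 of Tnnc1, 14 of Tcap, 19 of Pln and 15 of Mb. These 63 held 92.4% of the counts at the loci, with widths whose median was 1338 bases. The other 120 were narrower, with a median of 233.5 bases, and each had between 5 and 129 counts over all libraries. They are named by locus and by their number along the chromosome, as in Tcap-6. Levels are in CPM, counts scaled to 1 common effective library size with factors from trimmed means of log ratios (TMM). Levels of different regions are set against each other as CPM per kb of width, with exceptions. Shares of a locus sum, the choice of regions by average log2 CPM and words for strong coverage use CPM without width, so wide regions weigh more there. Calls were made with edgeR's quasi-likelihood test at a Benjamini-Hochberg adjusted p under 0.05 over all 144810 tested regions of the table, and ± after a log2 fold change gives the standard error. In bulk libraries, more cells with an open region cannot be told apart from a region that is more open in each cell.

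Library totals ran from 2.29 to 23.2 M counts, so that 1 CPM stood for 2.78 to 23.9 counts. In 3 libraries the profile over all tested regions stood apart: replicate 1 of day 2 and of day 3 on the second principal component, and replicate 3 of day 14 on the third. Fibroblast replicates 1 and 2 had the lowest chi-square per degree of freedom of the pairs within a group, at 1.36 against 2.08 to 20.7. That value grows with depth and includes the largest region of the table, on chromosome 1, so it does not rank how close the profiles are. Fibroblast replicates 1 and 2 differed from replicate 3 in the share of counts in that region, at 49.4 and 49.3% against 14.5%. Each is given below beside the results it touches. The labels call the replicates biological but do not say which animals or cultures they came from.

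Summed over all regions of a locus, Tcap stood furthest above its fibroblast level. The Tcap sum was 36.8, 86.9 and 61.3 CPM at day 2, 28.7, 71.0 and 73.9 CPM at day 3, 91.4, 101 and 87.5 CPM at day 7, 101, 107 and 53.0 CPM at day 14, and 98.4, 72.5 and 114 CPM at day 21 for replicates 1, 2 and 3, against 15.9, 15.3 and 20.2 CPM in fibroblasts. All 15 GMT libraries lay above all 3 fibroblast libraries, and the lowest GMT library was replicate 1 of day 3. The mean of the 15 was 4.62 times that of fibroblasts. In order of mean, the Tcap sum was 95.01 ± 21.0 CPM at day 21, 93.4 ± 7.17 CPM at day 7, 86.9 ± 29.5 CPM at day 14, 61.7 ± 25.1 CPM at day 2, 57.9 ± 25.3 CPM at day 3 and 17.1 ± 2.68 CPM in fibroblasts (SD, n = 3 each). Neighbours in that order overlapped at every step among the GMT groups, and the day 3 and fibroblast libraries did not overlap. The 3 lowest GMT sums were those of the 3 libraries that stood apart, and the part these libraries play in the lower day 2 and day 3 means was not tested for the sum.

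The Pln, Mb and Tnnc1 sums differed less from fibroblasts. The Pln sum averaged 53.0 ± 7.08 CPM at day 2, 58.6 ± 11.2 CPM at day 3, 55.0 ± 7.25 CPM at day 7, 60.7 ± 8.99 CPM at day 14 and 70.0 ± 15.2 CPM at day 21, against 39.1 ± 7.06 CPM in fibroblasts. All 15 GMT libraries were above the fibroblast maximum of 43.6 CPM, the lowest of them at 48.5 CPM, while every pair of neighbours among the GMT groups overlapped. The Mb sum averaged 100.4 ± 14.3, 96.6 ± 19.6, 125 ± 3.07, 112 ± 29.0 and 118 ± 16.5 CPM at days 2, 3, 7, 14 and 21, against 70.8 ± 9.08 CPM in fibroblasts, with 13 of 15 GMT libraries above the fibroblast maximum of 80.0 CPM. For Mb every step in the order of group means overlapped, including that between day 3 and fibroblasts. The Tnnc1 sum averaged 99.7 ± 25.2, 84.8 ± 30.4, 127 ± 3.30, 92.7 ± 23.2 and 120.1 ± 21.6 CPM at days 2, 3, 7, 14 and 21, against 96.6 ± 11.4 CPM in fibroblasts, and 7 of 15 GMT libraries were above the fibroblast maximum of 107 CPM. The Tnnc1 groups overlapped at every step in the order of means, and the fibroblast mean lay between those of day 2 and day 14. Mean folds over fibroblasts were 1.52 for Pln, 1.56 for Mb and 1.09 for Tnnc1, and they moved to 2.03, 2.21 and 1.55 when scaling factors were taken from all regions of the table. These sums are descriptions and carry no test.

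**Figure D1:**
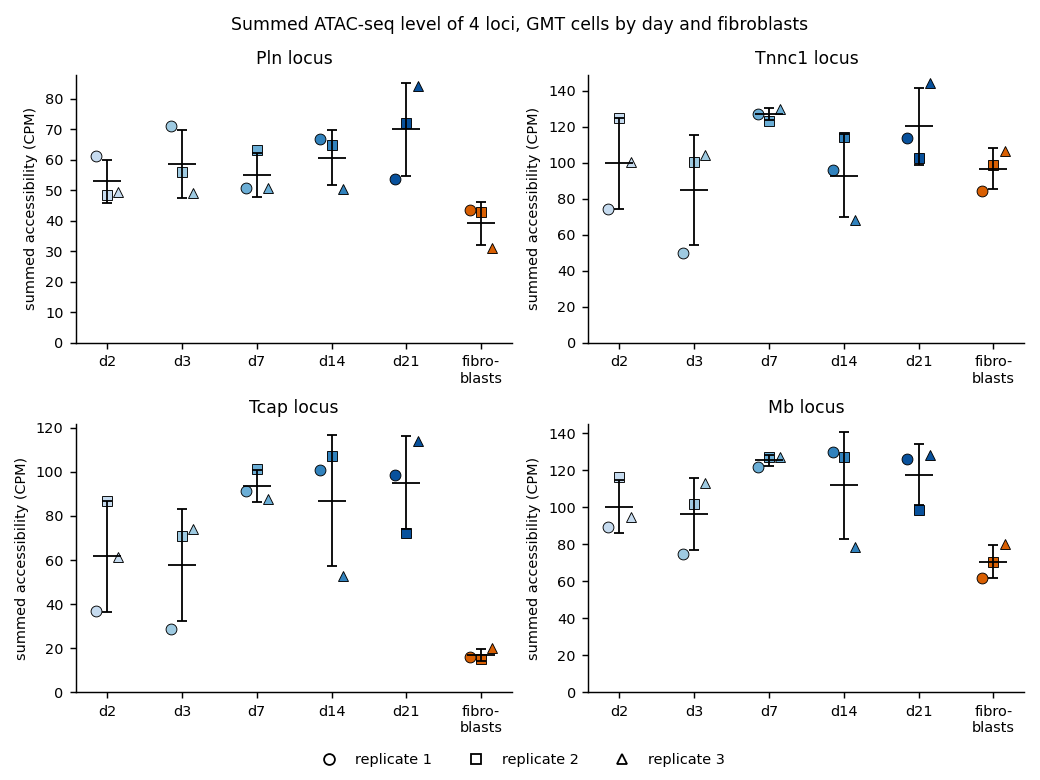
Summed ATAC-seq level of each locus in CPM (vertical axes, from 0) in every library, for GMT cells at days 2, 3, 7, 14 and 21 and for fibroblasts on the right; symbols are replicates 1, 2 and 3, and bars are the mean and SD. The Tcap panel has all 15 GMT libraries between 28.7 and 114 CPM, above the fibroblast libraries at 15.3 to 20.2 CPM, while the Tnnc1 panel has GMT libraries on both sides of the fibroblasts.

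Region by region, 19, 17, 24, 23 and 29 of the 63 tested regions were called over fibroblasts at days 2, 3, 7, 14 and 21, of which 2 were lower at each time and the others higher. The calls lower depended on the scaling: with TMM factors from all regions 0 were lower at days 2, 3, 7 and 21 and 1 at day 14, and with library totals alone 0 were lower at days 2 and 21 and 1 at days 3, 7 and 14. Calls lower became rarer over the whole table too. Of all calls over the table, 76.6 to 88.4% were higher with TMM factors from all regions and 76.2 to 92.3% with library totals alone. As reported, 17683 of 29402 were higher at day 2. Whether the members differ from the table in this was not tested. Over all tested regions of the table, the share called in either direction was 20.3% at day 2, 22.0% at day 3, 27.5% at day 7, 22.5% at day 14 and 23.4% at day 21, the share called higher was 12.2, 13.2, 15.5, 12.8 and 13.3%, and the share called lower was 8.09, 8.84, 12.0, 9.70 and 10.1%. The members called higher were 27.0, 23.8, 34.9, 33.3 and 42.9% of the 63. Since the filter keeps regions that have enough reads in any 3 libraries, these shares describe the tested regions and not the 183. The 5 comparisons share the 3 fibroblast libraries, so calls at several times are not independent of each other. Without fibroblast replicate 1, 12 regions were called at day 2 and 17 at day 21.

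The called regions were spread unequally over the loci. Tcap had 7, 7, 10, 9 and 11 of 14 regions higher at days 2, 3, 7, 14 and 21, and the log2 fold changes of its 14 regions had medians of 1.72, 1.71, 2.85, 2.61 and 2.78. Mb had 6, 4, 6, 7 and 8 of 15 higher, with medians of 1.5, 0.83, 0.98, 1.14 and 1.33. Tnnc1 had 2, 2, 4, 2 and 5 of 15 higher and 2 lower each time, with medians of 0.28, 0.08, 0.55, -0.04 and 0.20. The day 14 median of Tnnc1 was below that of all tested regions as reported, at -0.04 beside 0.07, and with TMM factors from all regions, at 0.26 beside 0.36. Pln had 2, 2, 2, 3 and 3 of 19 higher, with medians of 0.00, 0.33, 0.30, 0.40 and 0.56, of which that of day 2 was -0.02 with RLE size factors, beside -0.02 over all tested regions. Over all tested regions the median was between -0.01 and 0.07 at the 5 times. At day 7, the share of regions called higher was therefore 71.4% at Tcap, 40% at Mb, 26.7% at Tnnc1 and 10.5% at Pln beside 15.5% over the table, and whether the loci differ from each other was not tested. Over the 5 times, 15 regions were called higher at every time, 12 at some times, 2 lower at every time and 34 at none. The matching shares over all tested regions were not computed, so whether these counts are unusual for the table is not known.

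**Figure D2:**
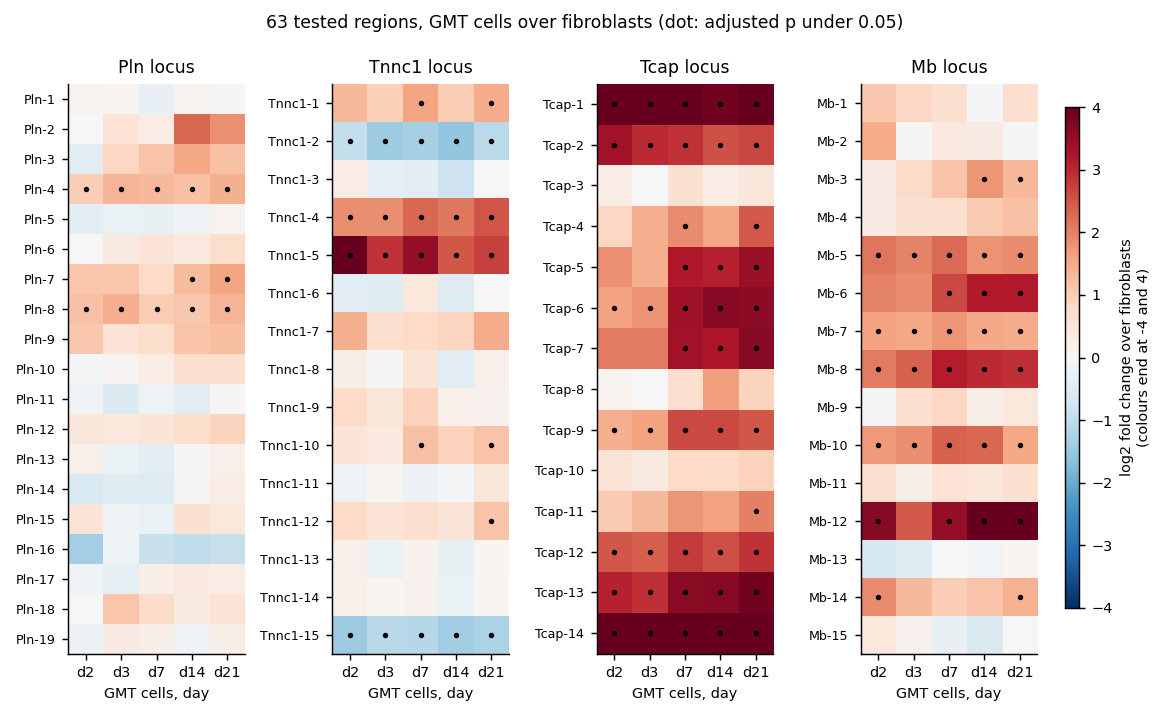
Log2 fold change over fibroblasts of the 63 tested regions (rows, by position in each locus) at days 2, 3, 7, 14 and 21 (columns), with red higher and blue lower in GMT cells, colours ending at a fold change of 4 in either direction, and a dot where the adjusted p was under 0.05. Dots fill most of the Tcap panel, with 11 of 14 rows at day 21, and are few in the Pln panel, with 3 of 19 rows.

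At Tcap, the gene of the titin cap, 4 regions were called higher at every time under every alternative tried (Tcap-1, Tcap-2, Tcap-12 and Tcap-13). The share of all tested regions that held in this way was not computed, so how common this is in the table is not known. Tcap-13 (chr11:98255241-98256883) had 5.12, 17.5 and 11.8 CPM at day 2, 3.43, 13.6 and 13.7 CPM at day 3, 15.4, 19.4 and 17.5 CPM at day 7, 19.5, 22.7 and 10.9 CPM at day 14, and 21.5, 13.4 and 26.8 CPM at day 21, against 1.55, 0.694 and 2.16 CPM in fibroblasts. Every GMT library exceeded every fibroblast library, and the lowest were replicate 1 of day 3 and of day 2. The log2 fold change of Tcap-13 was 3.07 ± 0.48 at day 2 (adjusted p 4.87e-06), 3.59 ± 0.47 at day 7 (adjusted p 9.2e-08) and 3.85 ± 0.47 at day 21 (adjusted p 2.77e-08). It made up 21.3 ± 2.57% of the Tcap sum at day 21, against 8.34 ± 3.32% in fibroblasts (SD, n = 3 each).

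Its neighbour Tcap-12 (chr11:98253446-98255158) ran from 3.69 to 15.9 CPM over the 15 GMT libraries, with a median of 12.1 CPM, against 1.62 to 2.52 CPM in fibroblasts. GMT cells and fibroblasts did not overlap, and the log2 fold change was 2.48 ± 0.50 at day 2 (adjusted p 0.0005) and 2.88 ± 0.49 at day 21 (adjusted p 4.36e-05). Tcap-1 (chr11:98227127-98230067) starts outside the window and reaches into it. It held 11.2, 13.4 and 8.35 CPM at day 2, 6.86, 10.3 and 11.2 CPM at day 3, 10.7, 9.02 and 10.6 CPM at day 7, 6.94, 10.0 and 5.94 CPM at day 14, and 8.69, 8.62 and 13.9 CPM at day 21, against 0.365, 0.231 and 1.44 CPM in fibroblasts. Over fibroblasts, the log2 fold change of Tcap-1 was 4.40 ± 0.45 at day 2 (adjusted p 2.23e-11) and 4.33 ± 0.44 at day 21 (adjusted p 1.47e-11). All GMT libraries exceeded all fibroblast libraries. Between day 21 and day 2 the log2 fold change was -0.08 ± 0.28 (adjusted p 0.944). Tcap-2 (chr11:98230383-98231385), next to it, was also called at every time, with log2 fold changes between 2.56 and 3.36. Without regions that reach past the window, the Tcap sum was 4.22 times that of fibroblasts.

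Tcap-9 (chr11:98244310-98248443), the widest tested Tcap region, had 3.20, 15.2 and 11.4 CPM at day 2, 3.96, 15.5 and 14.3 CPM at day 3, 22.1, 27.5 and 22.3 CPM at day 7, 31.8, 26.9 and 11.4 CPM at day 14, and 22.5, 15.8 and 26.3 CPM at day 21, against 3.65, 3.70 and 4.32 CPM in fibroblasts. Replicate 1 of day 2 lay below the fibroblasts and replicate 1 of day 3 within their range, and the other 13 GMT libraries were above them. Tcap-9 had a log2 fold change of 1.46 ± 0.44 at day 2 (adjusted p 0.0152), 2.64 ± 0.43 at day 7 (adjusted p 9.45e-06) and 2.50 ± 0.43 at day 21 (adjusted p 2.74e-05). The day 2 call was lost without replicate 2 of day 2 (adjusted p 0.164), without fibroblast replicate 1 (0.0882) and without fibroblast replicate 2 (0.0532), and the calls at the other times held in every alternative.

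Tcap-6 (chr11:98238474-98239857) was low at days 2 and 3 and higher from day 7 on. It had 1.60, 1.69 and 2.04 CPM at day 2, 1.06, 2.14 and 2.30 CPM at day 3, 5.48, 6.51 and 6.27 CPM at day 7, 9.32, 7.57 and 3.80 CPM at day 14, and 8.81, 5.54 and 6.24 CPM at day 21, against 0.365, 1.16 and 0.360 CPM in fibroblasts. Every library of days 7, 14 and 21 was above every library of days 2 and 3, and replicate 1 of day 3 was within the fibroblast range. Its log2 fold change over fibroblasts was 1.62 ± 0.54 at day 2 (adjusted p 0.0251), 1.81 ± 0.51 at day 3 (0.00547), 3.38 ± 0.45 at day 7 (1.38e-08), 3.64 ± 0.45 at day 14 (2.94e-09) and 3.56 ± 0.45 at day 21 (4.01e-09). The calls at days 2 and 3 were lost without fibroblast replicate 1 (adjusted p 0.307 and 0.176), without replicate 2, replicate 3 or fibroblast replicate 3 at day 2 (0.0662, 0.0624 and 0.0581), without replicate 3 at day 3 (0.0506), and with no filter on low counts at day 2 (0.163). Those of days 7, 14 and 21 held throughout.

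Tcap-14 (chr11:98257959-98258529) had the opposite order in time. It held 1.92, 3.31 and 2.85 CPM at day 2, 2.90, 2.68 and 3.68 CPM at day 3, 2.57, 2.28 and 3.88 CPM at day 7, 1.32, 1.70 and 2.38 CPM at day 14, and 0.780, 0.615 and 1.63 CPM at day 21, against 0, 0 and 0.360 CPM in fibroblasts. Each GMT library exceeded each fibroblast library, and the 3 libraries of day 21 lay below those of days 2 and 3. The fibroblast libraries held 1 count in all, against 63 at day 2 and 45 at day 21. Per effective library size, that is a ratio of 54.1 at day 2, with an exact 95% binomial interval of 9.37 to 2172, and 22.4 at day 21, with an interval of 3.82 to 904, which cover counting error only. It was called higher at every time, and the day 21 call was lost without fibroblast replicate 1 (adjusted p 0.0519).

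Of the other Tcap regions, Tcap-7 (chr11:98240697-98241063) and Tcap-5 (chr11:98237945-98238320) were called higher at days 7, 14 and 21. Fibroblasts held 3 counts in Tcap-7 and 2 in Tcap-5, and the ratio at day 21 was 13.9 for Tcap-7, with an interval of 4.61 to 68.9, and 13.2 for Tcap-5, with an interval of 3.47 to 112. Both flank Tcap-6, and Tcap-5 held 0 counts in replicate 1 of day 2 and of day 3. The calls of Tcap-7 held in every alternative at these 3 times and none of those of Tcap-5 did. Tcap-4 was called at days 7 and 21 and Tcap-11 at day 21, while Tcap-3, Tcap-8 and Tcap-10 were called at no time. The fitted fold change was above 0 for all 14 tested Tcap regions at each of the 5 times.

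**Figure D3:**
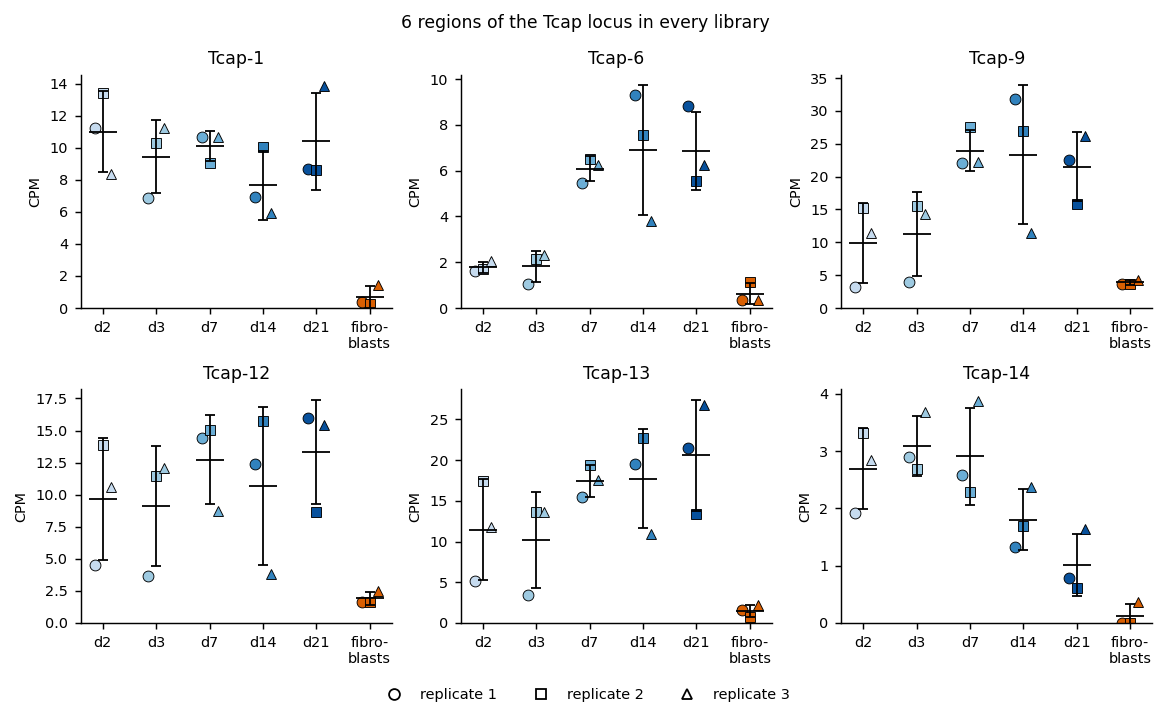
CPM (vertical axes, from 0) of the 6 named Tcap regions in every library, for GMT cells by day and fibroblasts on the right; symbols are replicates and bars are the mean and SD. Tcap-6 lies at 1.06 to 2.30 CPM at days 2 and 3 and at 3.80 to 9.32 CPM from day 7, whereas Tcap-1 is as high at day 2 as later and Tcap-14 is lowest among the GMT groups at day 21.

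At Tnnc1, the gene of cardiac troponin C, regions that rose lay beside regions that fell and beside strongly open regions that were not called. Tnnc1-5 (chr14:32006458-32007291) had the highest fold change of the tested Tnnc1 regions at each of the 5 times, with 3.52, 3.62 and 4.48 CPM at day 2, 1.32, 2.90 and 1.30 CPM at day 3, 2.44, 2.74 and 3.18 CPM at day 7, 1.52, 1.55 and 0.713 CPM at day 14, and 1.45, 1.85 and 1.58 CPM at day 21, against 0, 0.694 and 0.360 CPM in fibroblasts. All 15 GMT libraries were above the fibroblasts, and the 3 of day 2 were higher than any of the other 12. For Tnnc1-5 the log2 fold change was 3.98 ± 0.62 at day 2 (adjusted p 9.7e-07) and 2.72 ± 0.67 at day 21 (adjusted p 0.0013), and the difference between day 21 and day 2 was -1.26 ± 0.39, which did not pass (adjusted p 0.0809). The calls at days 3, 14 and 21 were lost without fibroblast replicate 1, in which the region held 0 counts (adjusted p 0.098, 0.275 and 0.149).

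Tnnc1-4 (chr14:32005154-32005550), just before it, ran from 0.238 to 2.54 CPM over the GMT libraries, with a median of 1.38 CPM, against 0 to 0.456 CPM in fibroblasts. Its log2 fold change was between 1.86 and 2.51 and was called at every time, with 14 of 15 GMT libraries above the fibroblasts. The day 7 and day 21 calls held in every alternative. That of day 2, with an adjusted p of 0.0432, was lost in 11 of 15 alternatives, including each of the 6 that left out a library (adjusted p up to 0.163). The day 3 call was lost without replicate 3 of day 3 (0.0985) or without fibroblast replicate 1 (0.0552) or 2 (0.139). It was also lost with fibroblast replicates 1 and 2 summed (0.0504), with DESeq2 (0.0741) and with no filter on low counts (0.187). The day 14 call was lost without replicate 1 of day 14 (0.311) or fibroblast replicate 2 (0.0707), and with no filter on low counts (0.0767).

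Tnnc1-2 (chr14:32001622-32003022) fell. It had 8.96, 10.5 and 7.54 CPM at day 2, 5.01, 6.65 and 7.60 CPM at day 3, 6.21, 7.42 and 7.76 CPM at day 7, 7.34, 5.72 and 4.51 CPM at day 14, and 8.69, 7.23 and 8.93 CPM at day 21, against 13.9, 16.4 and 24.1 CPM in fibroblasts. Every GMT library was below every fibroblast library. Its log2 fold change was -0.96 ± 0.28 at day 2 (adjusted p 0.00874), -1.32 ± 0.27 at day 7 (adjusted p 0.000121) and -1.08 ± 0.27 at day 21 (adjusted p 0.00161). With TMM factors from all regions, which moved the median of all tested regions by 0.29 to 0.55, the fall was not called at days 2, 3, 7 and 21 (adjusted p 0.413, 0.133, 0.222 and 0.363). With library totals alone it was not called at days 2 and 21 (0.362 and 0.166), and at day 2 it was also lost with no filter on low counts (0.0779), without replicate 3 of day 2 (0.0553) or without fibroblast replicate 3 (0.0793). A second region, Tnnc1-15 (chr14:32039731-32042424), was chosen here after its values were seen. It starts inside the window and lies mostly past its end at 32040000. Without regions that reach past the window, the Tnnc1 sum was 1.16 times that of fibroblasts. Tnnc1-15 ran from 0.640 to 5.90 CPM over the GMT libraries against 8.85 to 11.9 CPM in fibroblasts. It was called lower at every time, with log2 fold changes between -1.45 and -1.10. Its calls were lost at all 5 times with TMM factors from all regions (adjusted p 0.115 to 0.419) and with library totals alone (0.0659 to 0.158). They were also lost without replicate 1 of day 3 (0.0686), replicate 1 (0.0707) or 2 (0.0774) of day 7, replicate 1 of day 14 (0.106) and replicate 1 of day 21 (0.06), at day 3 without any 1 of the fibroblast replicates (0.0625 to 0.0974) or with replicates 1 and 2 of them summed (0.0581), and at day 7 without fibroblast replicate 3 (0.0687).

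Tnnc1-10 (chr14:32017756-32023142) was the widest of all 63 tested regions. It had 11.8, 41.3 and 29.3 CPM at day 2, 8.70, 31.5 and 35.1 CPM at day 3, 45.4, 40.4 and 47.8 CPM at day 7, 38.7, 46.7 and 26.6 CPM at day 14, and 41.7, 34.6 and 54.6 CPM at day 21, against 19.8, 20.8 and 18.4 CPM in fibroblasts. Replicate 1 of day 2 and of day 3 lay below the fibroblasts, and the other 13 GMT libraries lay above them. It was called higher at day 7 (log2 fold change 1.18 ± 0.36, adjusted p 0.00991) and day 21 (1.15 ± 0.36, adjusted p 0.0134), with 0.51 ± 0.36 at day 2, 0.38 ± 0.36 at day 3 and 0.93 ± 0.36 at day 14 (adjusted p 0.345, 0.494 and 0.0539). Without these 2 libraries the day 2 and day 3 differences were called too (adjusted p 0.0031 and 0.00761), and the day 21 call was lost without replicate 3 of day 21 (0.0931) or fibroblast replicate 1 (0.0597) or 3 (0.0533). With library totals alone the day 2 difference of Tnnc1-10 was called as well, and its day 14 difference was called in 5 of 15 alternatives. Its share of the Tnnc1 sum was 35.1 ± 2.09% at day 7 and 36.1 ± 2.10% at day 21, against 20.6 ± 3.16% in fibroblasts (SD, n = 3 each).

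The other strongly covered Tnnc1 regions, Tnnc1-6 (chr14:32008013-32009671) and Tnnc1-8 (chr14:32010813-32012920), were called at no time as reported. With only the compared groups in the fit, both were called at day 7 (adjusted p 0.0438 and 0.0241). Tnnc1-6 ran from 7.13 to 23.1 CPM over the GMT libraries with a median of 12.9 CPM, against 11.6 to 18.7 CPM in fibroblasts, and Tnnc1-8 ran from 2.85 to 19.8 CPM with a median of 12.4 CPM, against 9.76 to 12.6 CPM. Both overlapped the fibroblasts on either side, and their lowest value was in replicate 3 of day 14. Tnnc1-1 was called higher at days 7 and 21 and Tnnc1-12 at day 21, and 8 of the 15 tested Tnnc1 regions were called at no time.

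At Pln, the gene of phospholamban, 3 of 19 tested regions were called over fibroblasts, and the share called higher was 10.5% at days 2, 3 and 7 and 15.8% at days 14 and 21, beside 12.2 to 15.5% of the whole table. These shares depended on the scaling at later times. With TMM factors from all regions 21.1% at day 14 and 36.8% at day 21 were called higher, beside 13.3 and 18% of the table, and with library totals alone 42.1% at both times, beside 21.4 and 25.4%. Pln-4 (chr10:53043845-53045486) was the most covered tested Pln region per kb at day 7, at 8.32 CPM per kb in GMT cells against 3.15 in fibroblasts. It had 14.4, 9.32 and 10.2 CPM at day 2, 25.6, 9.54 and 10.0 CPM at day 3, 12.8, 14.7 and 13.4 CPM at day 7, 15.5, 11.4 and 9.98 CPM at day 14, and 12.5, 14.2 and 17.8 CPM at day 21, against 6.84, 5.78 and 2.88 CPM in fibroblasts. All GMT libraries were above all fibroblast libraries, and replicate 1 of day 3 was highest. Its log2 fold change was 1.00 ± 0.34 at day 2 (adjusted p 0.0262), 1.30 ± 0.32 at day 7 (adjusted p 0.00139) and 1.43 ± 0.32 at day 21 (adjusted p 0.00052). The day 2 call was lost without replicate 1 of day 2 (adjusted p 0.0994) or fibroblast replicate 2 (0.0601) or 3 (0.133), and with no filter on low counts (0.0905). That of day 14 was lost without replicate 1 of day 14 (0.0672).

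Pln-8 (chr10:53054821-53058138) ran from 4.75 to 10.1 CPM over the GMT libraries, with a median of 5.95 CPM, against 1.44 to 4.16 CPM in fibroblasts. The groups did not overlap, and it was called at every time with log2 fold changes between 1.02 and 1.45, of which that of day 3 held in every alternative (1.45 ± 0.34, adjusted p 0.000762). The day 2 call was lost without fibroblast replicate 1 (0.099) or 3 (0.0602), that of day 7 without replicate 2 of day 7 (0.103) or fibroblast replicate 1 (0.126) or 3 (0.0811), that of day 14 without replicate 1 (0.0516) or 2 (0.0587) of day 14 or fibroblast replicate 1 (0.119) or 3 (0.0788), and that of day 21 without replicate 3 of day 21 (0.0729). With no filter on low counts, the calls of Pln-8 at days 2, 7 and 14 were lost too (0.0818, 0.109 and 0.115). Pln-7 was called at days 14 and 21.

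Pln-10 (chr10:53060449-53062145) was called in no comparison as reported. Over fibroblasts it was called in 1 of 15 alternatives at day 14 and in 2 of 15 at day 21. It averaged 3.74 ± 1.22 CPM at day 2, 4.39 ± 0.61 CPM at day 3, 5.08 ± 0.40 CPM at day 7, 6.43 ± 1.28 CPM at day 14 and 6.41 ± 1.41 CPM at day 21, against 3.93 ± 0.82 CPM in fibroblasts (SD, n = 3 each). All 6 libraries of days 14 and 21, at 5.23 CPM or more, were above all 6 of days 2 and 3, at 5.00 CPM or less, and the difference of days 14 and 21 over days 2 and 3 was 0.61 ± 0.20 on the log2 scale with an adjusted p of 0.0594, which did not pass. Pln-2 (chr10:53038000-53038800) held few reads, between 0 and 27 counts a library, and was not called over fibroblasts at any time as reported, with its highest log2 fold change of 2.30 ± 0.89 at day 14 (adjusted p 0.0526). It was called in 6 of 14 alternatives at day 14 (lowest adjusted p 0.00972) and in 3 of 14 at day 21 (lowest 0.0263).

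**Figure D4:**
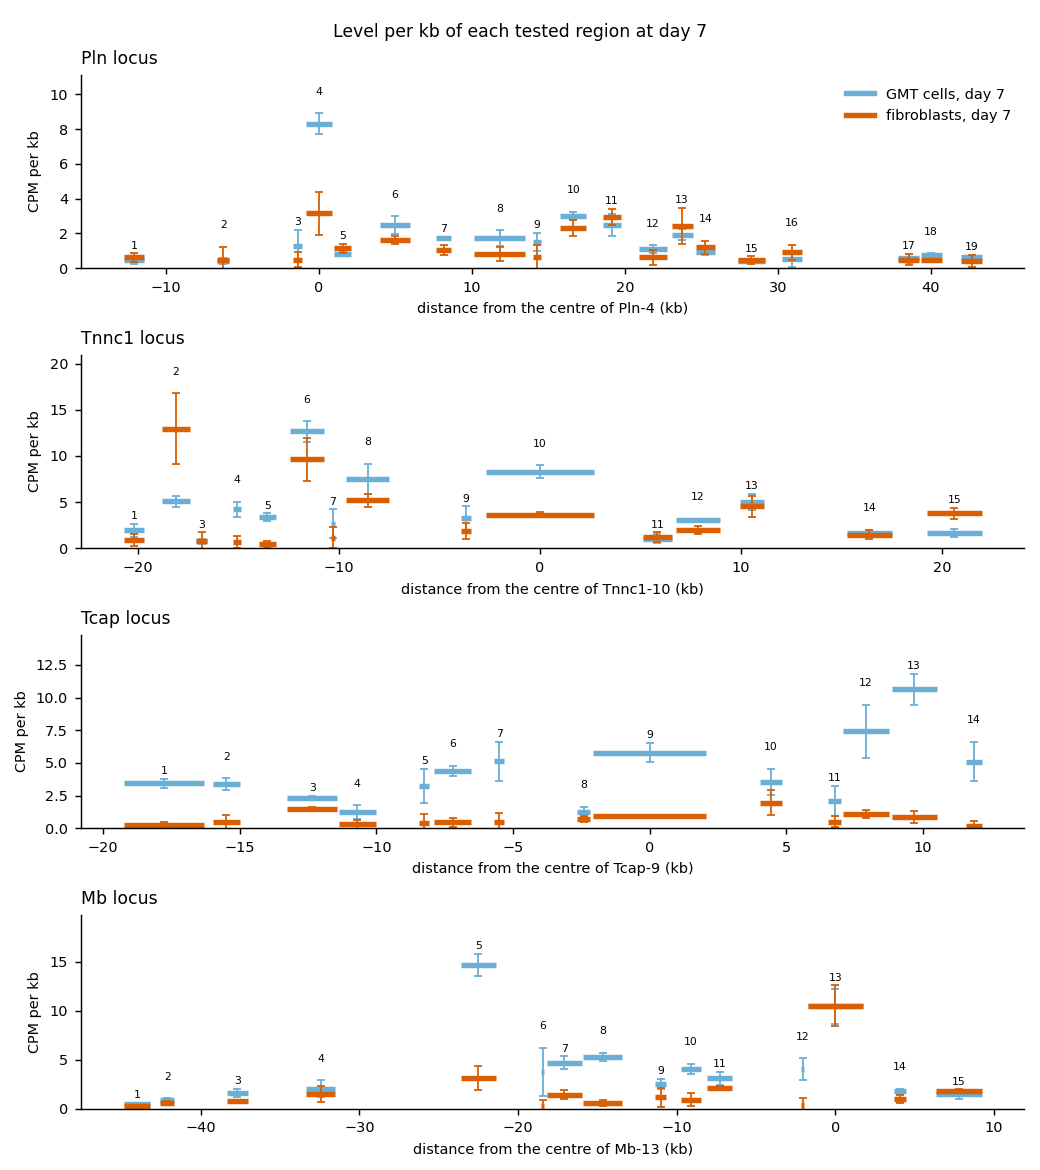
CPM per kb of each tested region at day 7 along the 4 loci, for GMT cells and fibroblasts; bars span the region, whiskers are the SD over 3 libraries, the horizontal axis is the distance in kb from the centre of the region named on that axis, and numbers are those of the region names. At Mb, Mb-5 is at 14.7 CPM per kb in GMT cells and 3.10 in fibroblasts, while Mb-13 is at 10.4 and 10.5.

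At Mb, the gene of myoglobin, regions that rose stood beside a region that was already open in fibroblasts. Mb-5 (chr15:76843588-76845811) had 30.1, 31.3 and 28.3 CPM at day 2, 28.0, 26.9 and 25.2 CPM at day 3, 31.3, 30.9 and 35.5 CPM at day 7, 26.4, 26.1 and 17.1 CPM at day 14, and 24.7, 19.4 and 31.0 CPM at day 21, against 6.57, 4.40 and 9.73 CPM in fibroblasts. Every GMT library was above every fibroblast library, and replicate 3 of day 14 was lowest. For Mb-5 the log2 fold change was 2.15 ± 0.33 at day 2 (adjusted p 7.65e-07), 2.28 ± 0.33 at day 7 (adjusted p 9.98e-08) and 1.90 ± 0.33 at day 21 (adjusted p 5.65e-06). The difference between day 21 and day 2 was -0.25 ± 0.29 on the log2 scale (adjusted p 0.781). Replicate 1 of day 2 and of day 3, low in many regions of Tcap and Tnnc1, were not among the low ones here.

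Mb-8 (chr15:76851321-76853735) was called higher at every time. It had 5.44, 7.62 and 4.48 CPM at day 2, 4.48, 6.11 and 10.4 CPM at day 3, 13.5, 11.5 and 13.1 CPM at day 7, 11.8, 14.5 and 8.08 CPM at day 14, and 14.6, 6.62 and 11.3 CPM at day 21, against 1.37, 2.08 and 0.721 CPM in fibroblasts. All GMT libraries exceeded all fibroblast libraries, and the libraries of days 2 and 3 overlapped those of days 14 and 21. Mb-8 had a log2 fold change of 2.07 ± 0.40 at day 2 (adjusted p 7.47e-05), 3.13 ± 0.38 at day 7 (adjusted p 9.73e-10) and 2.92 ± 0.38 at day 21 (adjusted p 1.17e-08). Day 21 over day 2 did not pass for Mb-8 (adjusted p 0.156). Mb-5, Mb-7 and Mb-8 were the 3 Mb regions called higher at every time under every alternative, Mb-7 (chr15:76848997-76851262) with log2 fold changes between 1.5 and 1.76. The matching share over all tested regions was not computed.

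Mb-13 (chr15:76865482-76868922) was the region with the largest share of the Mb sum in fibroblasts, at 50.8 ± 4.30%, and held 22.1 ± 5.27% at day 2, 25.5 ± 2.84% at day 3, 28.5 ± 4.35% at day 7, 28.5 ± 4.79% at day 14 and 32.3 ± 3.16% at day 21 (SD, n = 3 each). Its own level ran from 14.4 to 44.0 CPM over the GMT libraries with a median of 30.8 CPM, against 31.0 to 44.3 CPM in fibroblasts. No GMT library was above all fibroblast libraries and 8 were below all of them, and its log2 fold change was between -0.65 and 0.07, called at no time. Mb-12 (chr15:76865038-76865238), a narrow region just before it, held 1 count in fibroblasts and was called higher at days 2, 7, 14 and 21. Its ratio at day 14 was 30.1, with an interval of 5.12 to 1216, and its calls at days 2, 7 and 21 were lost without fibroblast replicate 1 (adjusted p 0.181, 0.175 and 0.0539), that of day 2 also without replicate 2 of day 2 (0.105). Mb-10 was called at every time, Mb-6 at days 7, 14 and 21, Mb-3 at days 14 and 21 and Mb-14 at days 2 and 21, with 7 of 15 tested Mb regions called at no time.

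Between time points, Tcap-6 was the single member called at day 21 over day 2, where 1.44% of all tested regions were called, 0.572% higher and 0.871% lower. Its log2 fold change was 1.95 ± 0.35 (adjusted p 0.000646), with all 3 libraries of day 21 above all 3 of day 2, and it held in all 15 alternatives (adjusted p 0.000473 to 0.0428). Over the pooled contrast of days 14 and 21 against days 2 and 3, with 6 libraries a side, 9 of the 63 regions were called, 8 higher and 1 lower, where 6.17% of all tested regions were called, 2.50% higher and 3.66% lower. At Tcap 4 were higher and 1 lower, at Mb 3 were higher, at Pln 1 was higher and at Tnnc1 0 of 15 were called. The unadjusted p of edgeR was under 0.05 in 2 Tnnc1 regions (Tnnc1-5 and Tnnc1-10). DESeq2 called 4 regions at Tcap, 2 at Mb, 0 at Pln and 0 at Tnnc1. Regions to which DESeq2 gave no adjusted p are not in its counts.

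Tcap-6 led again, with a log2 fold change of 1.89 ± 0.24 (adjusted p 1.36e-07), and held in all 21 alternatives (adjusted p 5.18e-10 to 0.00022). Its flanks Tcap-5 and Tcap-7 rose by 1.65 ± 0.44 (adjusted p 0.0135) and 1.39 ± 0.35 (adjusted p 0.00837), and Tcap-9 rose by 1.02 ± 0.27 (adjusted p 0.0146). Tcap-14 fell by 1.12 ± 0.28 (adjusted p 0.00771). Outside Tcap, Mb-12 rose by 1.33 ± 0.40 (adjusted p 0.0317), Mb-3 by 1.02 ± 0.29 (adjusted p 0.0236), Mb-8 by 0.75 ± 0.21 (adjusted p 0.0197) and Pln-2 by 1.81 ± 0.56 (adjusted p 0.0351). Each of these 8 lost its call under at least 1 alternative, and Tcap-5, Tcap-7 and Tcap-9 lost it without replicate 1 of day 14 (adjusted p 0.0963, 0.114 and 0.0704). Tcap-5 lost it also without replicate 3 of day 21 (0.0555), and Tcap-14 without replicate 2 of day 2 (0.0537). The calls outside Tcap were lost more widely: Mb-8 in 7 of 21 alternatives, Mb-3 in 9 of 21, and Mb-12 and Pln-2 each in 9 of 19. All 8 were lost with TMM factors from all regions, and the 4 outside Tcap also with library totals alone and with no filter on low counts. Tcap-5 was lost with no filter on low counts as well (0.0505). Without replicate 1 of day 2 and of day 3 together, Mb-3, Mb-12 and Pln-2 were lost (0.0771, 0.0625 and 0.0665). Mb-8 lost its call without replicate 3 of day 2 (0.0769), replicate 2 of day 3 (0.0586), replicate 2 of day 14 (0.0652) or replicate 1 of day 21 (0.0928). Mb-3 lost it without replicate 1 of day 2, replicate 3 of day 3, replicate 1 of day 14 or replicate 1 or 3 of day 21 (0.0531 to 0.0821). Mb-12 lost it without replicate 3 of day 2, replicate 2 of day 3, replicate 1 or 3 of day 14 or replicate 2 of day 21 (0.0557 to 0.144), and Pln-2 without replicate 1 or 2 of day 2, replicate 3 of day 3, replicate 1 of day 14 or replicate 3 of day 21 (0.0565 to 0.191). With TMM factors from all regions 1 of the 63 regions was called. Calls over the whole table fell as well, from 8931 as reported to 1862 with these factors and 4055 with library totals alone. Without replicate 1 of day 14, 3 members were called. Without replicate 1 of day 2 and of day 3 together, which stood apart, 8 were, of which 5 were higher and 3 lower. Calls were also gained: of the regions described in full and not called as reported, Tcap-13 was called in 8 of 21 alternatives, Tnnc1-5 in 3 and Pln-10 in 2. Tnnc1-5 was called without the 2 libraries that stood apart.

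**Figure D5:**
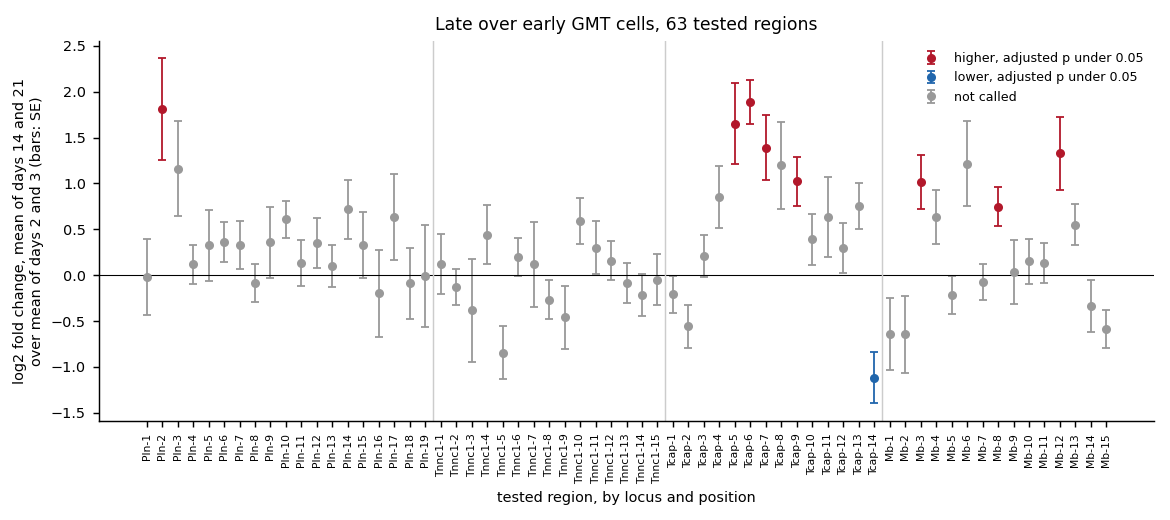
Log2 fold change of the mean of days 14 and 21 over the mean of days 2 and 3 (vertical axis, bars are the SE) for the 63 tested regions by locus and position; colours mark regions called higher, called lower and not called. Tcap-6 stands at 1.89 and Tcap-14 at -1.12, 9 regions are called in all, and none of them is at Tnnc1.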

How the data were processed

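The authors' deposited table holds ATAC-seq read counts per region for 18 libraries, 3 in each of 6 groups, and 18 further samples of the labels were not analysed here. Per the submitters' processing notes, Bowtie2, Picard, MACS2 and edgeR were used with build mm9; no version, setting or role is stated for them, nor is the treatment of duplicate or mitochondrial reads and of transposase offsets. Per the labels, libraries were sequenced at either of 2 cores, and which library at which is not stated, so no within-core value was computed. The last line of the table is incomplete, so that 1393120 of 1393121 lines were used.

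Counts were fitted in edgeR 4.0.16 (R 4.3.3) with all 18 libraries, 1 mean per group, TMM factors and the robust quasi-likelihood test, which left 12 residual degrees of freedom and a common biological coefficient of variation of 23.8%. The filter (filterByExpr, minimum count 10, minimum total 15) kept 144810 regions, 10.4% of the table with 79.2% of its counts. P-values are two-sided and Benjamini-Hochberg adjusted over these regions. The 7 comparisons were each GMT day over fibroblasts, day 21 over day 2, and days 14 and 21 over days 2 and 3. The standard error is the log2 fold change divided by the square root of F. Intervals cover counting error only. The fit was also run on simulated counts, drawn with the spread fitted to these data and with the effective library sizes supplied. The simulated counts held no libraries that stand apart, so they cannot test the scaling or the effect of such libraries.

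The members and lists were chosen with earlier results of these data known. Described in full are, per locus, the 3 tested regions of highest average log2 CPM, the 2 largest rises and the largest fall called at day 7, and the lowest p of the late over early contrast, 20 in all; other regions named were chosen after their values were seen. Alternatives were RLE size factors, library totals alone, TMM factors from all regions, other filters, DESeq2 1.42.0, a replicate block, fits on the compared groups, left-out libraries, and fibroblast replicates 1 and 2 summed. A stricter threshold, adjusted p under 0.01, was applied only to the counts of called members. Whether a single region kept or lost its call in an alternative was judged at adjusted p under 0.05. Fibroblast replicates 1 and 2 differed by more than sampling noise and were counted separately. Other genes of the pathway and cell type markers were not examined because no mm9 annotation was used here.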

Additional observations from a re-analysis of the deposited data

Results flagged for a closer look

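The following differences between GMT time points passed edgeR's quasi-likelihood test with Benjamini-Hochberg adjustment over 144810 regions. Tcap-6 was higher at day 21 than at day 2 by 1.95 ± 0.35 on the log2 scale (adjusted p 0.000646), with 3 of 3 libraries above all of day 2.

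In days 14 and 21 over days 2 and 3, with 6 libraries a side, Tcap-6 was higher by 1.89 ± 0.24 (adjusted p 1.36e-07), Tcap-5 by 1.65 ± 0.44 (adjusted p 0.0135), Tcap-7 by 1.39 ± 0.35 (adjusted p 0.00837) and Tcap-9 by 1.02 ± 0.27 (adjusted p 0.0146). Tcap-14 had a log2 fold change of -1.12 ± 0.28 (adjusted p 0.00771). Pln-2 was higher by 1.81 ± 0.56 (adjusted p 0.0351), Mb-12 by 1.33 ± 0.40 (adjusted p 0.0317), Mb-3 by 1.02 ± 0.29 (adjusted p 0.0236) and Mb-8 by 0.75 ± 0.21 (adjusted p 0.0197). Of the alternatives that gave a value, the call at adjusted p under 0.05 was kept in 21 of 21 for Tcap-6, 19 of 21 for Tcap-7, Tcap-9 and Tcap-14, 15 of 19 for Tcap-5, 14 of 21 for Mb-8, 12 of 21 for Mb-3, and 10 of 19 for Mb-12 and Pln-2. The stricter threshold of 0.01 is not among these alternatives.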

How the results depend on the processing

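No called fold change of a member reversed its direction in the alternatives run. Medians of a locus that lay near 0 changed sign with the scaling: Pln at day 2 to -0.02 with RLE size factors, Tnnc1 at day 14 to 0.26 with TMM factors from all regions and to 0.50 with library totals alone, and with library totals alone also Tnnc1 and Mb at day 21 over day 2, to -0.03 and -0.01, and Tnnc1 in late over early, to 0.00. Leaving out 1 library gave 12 to 19 called regions at day 2, 12 to 18 at day 3, 18 to 23 at day 7, 17 to 26 at day 14 and 17 to 29 at day 21 over fibroblasts, 1 at day 21 over day 2 in each case, and 3 to 10 in days 14 and 21 over days 2 and 3. The lowest counts at days 2, 3, 7 and 21 were without fibroblast replicate 1, and those at day 14 and in late over early without replicate 1 of day 14. Day 21 over day 2 gave 1 region as reported, 2 without replicate 1 of day 2 and of day 3, and 3 with only the compared groups in the fit. Late over early gave 9 as reported, 3 at adjusted p under 0.01, 5 with library totals alone, 5 with no filter on low counts and 1 with TMM factors from all regions. Over the table, 8931 regions were called as reported, 4055 with library totals alone and 1862 with TMM factors from all regions. Counts over the table are not given here for the stricter threshold, the fit with no filter or the fits that left out a library. The causes were not tested. The locus sums of GMT cells over fibroblasts moved, with library totals alone, to 2.09 for Pln, 1.36 for Tnnc1 and 1.96 for Mb, and with TMM factors from all regions to 2.03 for Pln, 1.55 for Tnnc1, 6.61 for Tcap and 2.21 for Mb. Library totals alone moved the median of all tested regions over fibroblasts by 0.30 to 0.63, so that 76.2 to 92.3% of calls over the table were higher, and TMM factors from all regions by 0.29 to 0.55, with 76.6 to 88.4% higher; as reported, 22511 regions were higher and 17309 lower at day 7. Of the alternatives' values for the 20 regions described in full, 2098 stayed on the same side of the threshold, 97 lost the call and 38 gained it. Most samples with the same replicate number did not deviate together (2 of 45 correlations over 0.1, median 0.0047, highest 0.321). With different numbers, 6 of 90 were over 0.1 (highest 0.220), and the numbers were not taken as pairs. Single pairs may still share a deviation: replicate 1 of day 2 and of day 3 stood apart on the same component, and a shared batch was not tested. With a replicate block the counts were 19, 17, 24, 24 and 26 at days 2 to 21, 1 and 10. In that setting 2 values of the regions described in full gained a call (Tnnc1-10 at day 14 and Tcap-13 in late over early). Alternatives that leave a region out by filter or give no adjusted p have no value. Depth limits the regions with 1 to 3 fibroblast counts (Tcap-14, Mb-12, Tcap-5, Mb-6 and Tcap-7).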
